A study of Mus musculus with 6 samples.

Results

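The 9 genes described here are transcription factors of the macrophage lineage, surface molecules and lysozymes: *Spi1*, *Cebpa*, *Cebpb*, *Maf*, *Csf1r*, *Adgre1*, *Cd4*, *Lyz1* and *Lyz2*. Of these, *Cd4* and *Lyz1* are better known from other cells. They were taken by gene symbol from a table of 55453 genes, where each matched 1 entry. All 9 were among the 13680 genes with enough counts to be tested.

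RNA-Seq was done on 6 libraries of bone marrow-derived macrophages (BMDM), cells grown out of mouse marrow in macrophage growth factor, from C57BL/6 mice. The 3 PP2A-KO libraries came from LysMcre PP2Ac fl/fl mice, in which cre recombinase deletes exon 1 of *Ppp2ca*, the gene of the catalytic subunit of the phosphatase PP2A, and the 3 WT libraries came from C57BL/6 mice with neither allele. The labels give no treatment for either group, while the study's text describes its RNA-Seq on BMDM treated with cGAMP, the cyclic dinucleotide that activates STING, so both groups were taken as treated. The labels imply a single comparison, PP2A-KO against WT.

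Several features of the model limit what the groups can show. The cre gene is driven by the *Lyz2* (LysM) promoter, so 1 member of the gene set is the driver gene, and the effects of the cre allele and of the loss of PP2Ac cannot be told apart. The study's methods name either M-CSF or medium conditioned by L929 fibroblasts as the growth factor source and do not say which was used for these libraries. Nothing states that the 3 libraries of a group came from separate animals, so the p-values measure the spread between these libraries. In bulk RNA, fewer cells of a type and less RNA per cell cannot be told apart.

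Macrophage identity is set by a small group of transcription factors. PU.1, encoded by *Spi1*, opens chromatin at myeloid enhancers, C/EBPα and C/EBPβ bind many of the same enhancers, and the large Maf factors help mature macrophages leave the cell cycle. Their best known target is *Csf1r*, the receptor for M-CSF, on whose signal the survival of BMDM depends. F4/80, encoded by *Adgre1*, is the surface marker by which mouse macrophages are usually gated, and lysozyme, which cleaves bacterial cell walls, is a secreted product of the lineage.

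*Lyz1* and *Lyz2* are neighbouring paralogs on chromosome 10, and their sequences are shown because *Lyz1* carried the largest decrease of the 9 genes and because reads could be divided between the 2 genes. In mm10 (GENCODE M21), *Lyz1* lies at chr10:117287797-117292868 and *Lyz2* at chr10:117277331-117282321, both on the reverse strand. Their coding sequences of 444 bases each differ at 22 bases and are 95.05% identical. The stretch from coding base 37 to coding base 156, which crosses an intron, was chosen as the 120 coding bases with the most differences. It holds 14 of the 22, printed in capitals. It spans chr10:117291174-117292802 in *Lyz1* and chr10:117280786-117282206 in *Lyz2*, both read on the reverse strand.
Lyz1: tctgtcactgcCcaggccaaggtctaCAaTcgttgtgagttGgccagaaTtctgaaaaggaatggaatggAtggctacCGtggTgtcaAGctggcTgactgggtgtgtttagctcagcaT
Lyz2: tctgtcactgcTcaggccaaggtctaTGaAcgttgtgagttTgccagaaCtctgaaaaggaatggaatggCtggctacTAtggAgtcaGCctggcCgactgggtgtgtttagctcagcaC
The capitals are spread along the stretch, so that a read covering it would meet bases that belong to 1 paralog only. Of the 50-base windows in the transcripts, 16.1% of those of *Lyz1* also occur in *Lyz2*, and 15.4% of those of *Lyz2* occur in *Lyz1*. At 100 bases the shares were 2.06% and 1.97%, and at 150 bases, the length of 1 read, none of the 1114 windows of *Lyz1* and none of the 1167 of *Lyz2* were shared.

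The stretch of promoter from 250 to 51 bases before the transcription start of each lysozyme gene, from RefSeq on GRCm38.p6, is printed because *Lyz1* passed the test of the genotypes and *Lyz2* did not, although their upstream sequences are alike. It lies at chr10:117292919-117293118 for *Lyz1* and at chr10:117282323-117282522 for *Lyz2*, both read on the reverse strand. Capitals mark a C/EBP motif (TTGCNNAA, present here on the opposite strand) in *Lyz1* and the core of a Maf motif (TGCTGA) in *Lyz2*.
Lyz1: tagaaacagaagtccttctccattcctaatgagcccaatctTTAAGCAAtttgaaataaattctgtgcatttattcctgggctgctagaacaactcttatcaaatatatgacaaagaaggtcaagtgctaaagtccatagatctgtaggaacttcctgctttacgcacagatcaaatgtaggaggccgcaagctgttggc
Lyz2: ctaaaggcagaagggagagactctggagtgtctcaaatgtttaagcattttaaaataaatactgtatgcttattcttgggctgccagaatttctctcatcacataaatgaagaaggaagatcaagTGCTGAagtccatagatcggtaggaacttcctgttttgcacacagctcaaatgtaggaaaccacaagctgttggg
The 300-base promoters of the 2 genes are 83.6% identical. Promoter sequences were matched for 4 of the 9 members, *Cebpa*, *Cebpb*, *Lyz1* and *Lyz2*, and were searched on both strands. The C/EBP motif, which 10.8% of all 32851 promoters hold, occurred in that of *Lyz1*, starting 209 bases before the start. The Maf core, held by 19.5% of promoters, occurred in that of *Lyz2*, 125 bases before the start. The PU box GAGGAA, held by 28.3%, occurred in none of the 4 promoters searched. A match of letters is a description of the sequence and not a binding site.

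Loss of *Ppp2ca* RNA was seen in every PP2A-KO library, from counts of the whole gene, so the deleted exon itself was not examined. *Ppp2ca* had 47, 33 and 38 counts in PP2A-KO against 10654, 8913 and 8279 in WT. Library totals ran from 35257156 to 47390899 counts, and 3 counts, the smallest signal told from 0 here, correspond to 0.0604 to 0.0909 CPM (counts scaled for library size), a floor that covers counting error only. All 9 members lay far above that floor in all 6 libraries.

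Changes went in both directions. Of the 9 members, 4 were higher in PP2A-KO (*Spi1*, *Cebpb*, *Maf* and *Cd4*) and 2 were lower (*Cebpa* and *Lyz1*) at an adjusted p under 0.05 from edgeR, where 18.1% of all genes tested were higher and 19.0% lower. The other 3, *Csf1r*, *Adgre1* and *Lyz2*, did not pass the test. In 7 of 9 members the PP2A-KO and WT libraries did not overlap, 5 of them higher and 2 lower in PP2A-KO, which held for 50.9% of all genes tested (24.0% higher and 26.8% lower). The median log2 fold change (LFC hereafter, always PP2A-KO over WT) was 0.28 for the members, and that of all genes tested was -0.02. At the study's thresholds, a log2 fold change beyond 1 and an adjusted p under 0.01, *Cd4* was higher and *Lyz1* was lower, against 3.36% and 2.99% of all genes tested. *Lyz1* lay close to that limit, with an LFC of -0.97 without PP2A-KO replicate 3 and of -0.96 without WT replicate 1.

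**Figure D1:**
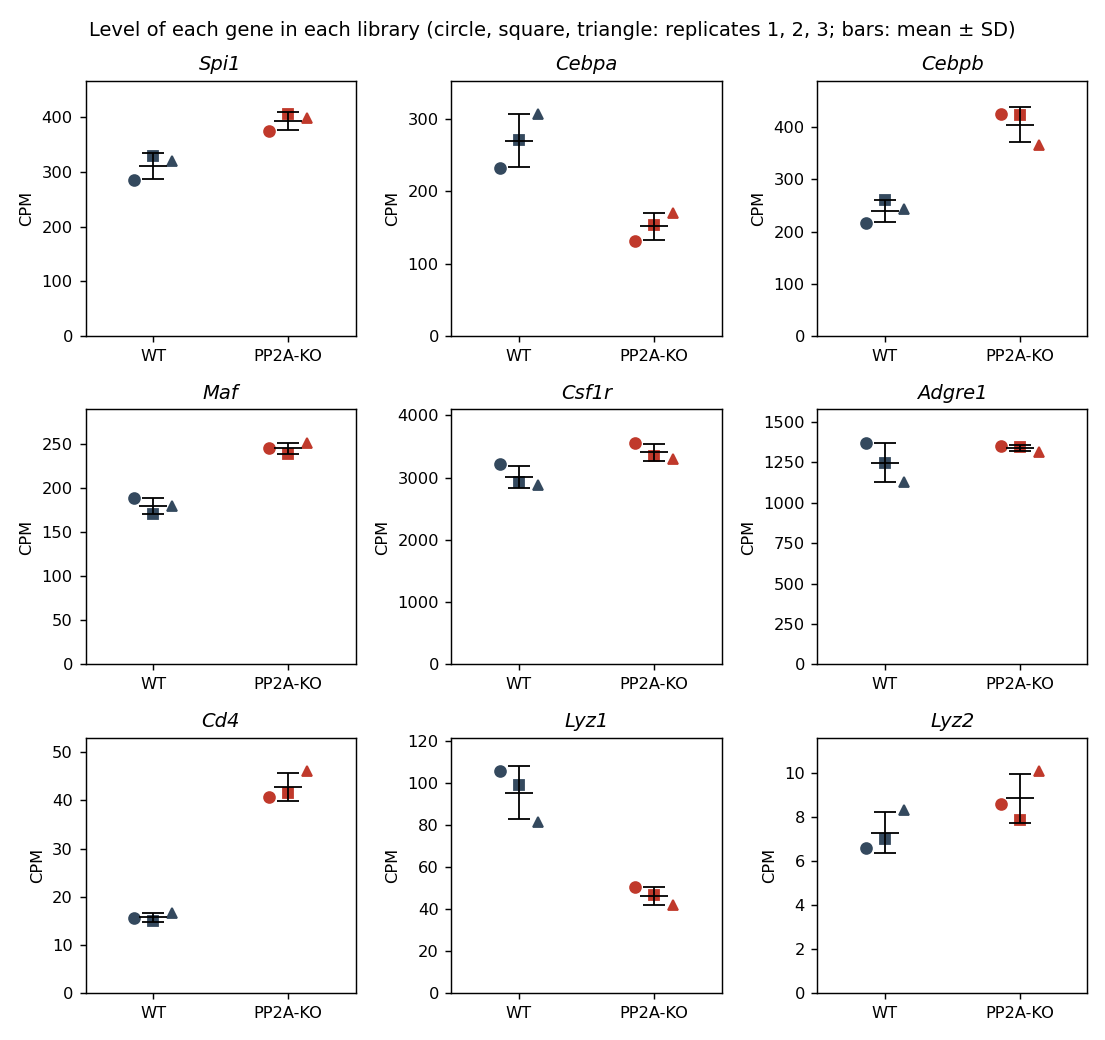
CPM of the 9 members in each of the 6 libraries, with 1 panel per gene, a point per library and bars for the mean ± SD of 3. The libraries of the 2 groups separate in 7 panels and overlap in those of *Adgre1* and *Lyz2*.

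*Spi1* (chr2:91082390-91115756, forward strand), which encodes the lineage factor PU.1, was modestly higher in PP2A-KO. It had 375.8, 405.8 and 399.1 CPM in the PP2A-KO libraries and 284.7, 329.3 and 320.7 CPM in the WT libraries. Every PP2A-KO library lay above every WT library, and replicate 1 was the lowest in both groups. The means were 394 ± 15.7 and 312 ± 23.6 CPM (SD, n = 3), an LFC of 0.34 (standard error, SE, 0.08, 95% interval 0.17 to 0.51, adjusted p = 0.00715 from edgeR).

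*Cebpa* (chr7:35119293-35121928, forward strand, 1 exon), the C/EBP factor that drives commitment to the myeloid lineage, was lower in PP2A-KO. Its levels were 131.8, 154.0 and 169.5 CPM in PP2A-KO against 233.0, 271.3 and 306.8 CPM in WT. The groups did not overlap, and within each of them replicate 1 was the lowest and replicate 3 the highest. With means of 152 ± 19.0 and 270 ± 36.9 CPM (SD, n = 3), the level was 1.78-fold higher in WT, an LFC of -0.83 (SE 0.12, 95% interval -1.10 to -0.57, adjusted p = 6.96e-04 from edgeR). Between libraries of the same replicate number, the log2 ratio of PP2A-KO to WT was -0.82, -0.82 and -0.86.

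*Cebpb* (chr2:167688915-167690418, forward strand, 1 exon), the C/EBP factor that is itself induced during inflammatory activation, moved the other way. The PP2A-KO libraries had 424.5, 422.7 and 365.4 CPM and the WT libraries 216.4, 259.6 and 242.3 CPM. The lowest PP2A-KO library stood well above the highest WT library. The means of 404 ± 33.6 and 239 ± 21.8 CPM (SD, n = 3) differed 1.69-fold, an LFC of 0.76 (SE 0.09, 95% interval 0.55 to 0.96, adjusted p = 3.16e-04 from edgeR). Its exons share 312 bases, 20.7% of its exon length, with *Tmem189* on the opposite strand, which had 6821 to 9765 counts per library (LFC -0.01, adjusted p = 0.928 from edgeR). The overlap of *Cebpa* with the antisense gene *Gm45091*, at 8 to 16 counts, was 51 bases.

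Because *Cebpa* and *Cebpb* changed in opposite directions, their balance differed between the genotypes. There were 3.22, 2.74 and 2.16 counts of *Cebpb* for each count of *Cebpa* in the PP2A-KO libraries and 0.929, 0.957 and 0.790 in the WT libraries. The ratio, which is not corrected for gene length, was higher in every PP2A-KO library than in any WT library. Per kb of exon, *Cebpb* was above *Cebpa* in all 6 libraries. The mean ratios were 2.71 ± 0.534 and 0.892 ± 0.0894 (SD, n = 3), a difference of 1.59 on the log2 scale, with p = 0.1 by a two-sided exact permutation test, the smallest value that 3 libraries against 3 allow. *Cebpd*, a further gene of the family and an acute-phase factor, had 12.3 ± 0.432 CPM in PP2A-KO and 8.84 ± 0.957 CPM in WT (SD, n = 3), an LFC of 0.47 (adjusted p = 0.00413 from edgeR).

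*Maf* (chr8:115682942-115707794, reverse strand), which encodes c-Maf, a large Maf factor of mature macrophages that also drives *Il10*, was higher in PP2A-KO with little spread. It had 246.1, 239.4 and 251.9 CPM in PP2A-KO and 189.2, 171.0 and 179.6 CPM in WT. The groups were well apart. The means were 246 ± 6.25 and 180 ± 9.14 CPM (SD, n = 3), 1.37-fold higher in PP2A-KO, with an LFC of 0.45 (SE 0.07, 95% interval 0.30 to 0.60, adjusted p = 7.67e-04 from edgeR).

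*Csf1r* (chr18:61100598-61132149, forward strand), the M-CSF receptor, was among the most abundant transcripts and differed little. The PP2A-KO libraries had 3561, 3354 and 3301 CPM and the WT libraries 3215, 2934 and 2883 CPM. The lowest PP2A-KO library lay just above the highest WT library. The means of 3405 ± 137 and 3011 ± 179 CPM (SD, n = 3) gave an LFC of 0.18 (SE 0.08, 95% interval 0.01 to 0.35, adjusted p = 0.0976 from edgeR). Replicate 1 was the highest in both groups, and the log2 ratios between libraries of the same number were 0.15, 0.19 and 0.20. When replicate number was a block, the change was again 0.18 and passed the test (adjusted p = 0.00280 from edgeR), and without WT replicate 1 it was 0.23 (adjusted p = 0.0278 from edgeR). *Hmgxb3*, which overlaps 15.1% of its exon length on the opposite strand, had 742 to 1103 counts per library (LFC -0.01, adjusted p = 0.923 from edgeR).

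*Adgre1* (chr17:57358691-57483527, forward strand), the gene of F4/80, did not pass the test. Its levels were 1351, 1345 and 1318 CPM in PP2A-KO and 1372, 1246 and 1132 CPM in WT. The groups overlapped, WT replicate 1 being the highest of all 6 libraries, and the WT libraries were the more scattered. The means were 1338 ± 17.5 and 1250 ± 120 CPM (SD, n = 3), and the LFC was 0.10 with a 95% interval from -0.09 to 0.28 (SE 0.08, adjusted p = 0.384 from edgeR).

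*Cd4* (chr6:124864692-124888221, reverse strand), best known as the coreceptor of helper T cells and also carried by some macrophages and dendritic cells, had the largest change of the 9 members. Counts were 1727, 1368 and 1922 in the PP2A-KO libraries and 776, 646 and 693 in the WT libraries, which corresponded to 40.7, 41.4 and 46.1 CPM and to 15.6, 14.9 and 16.5 CPM. All PP2A-KO libraries were far above all WT libraries, and the spread within each group was small. The level was 2.73-fold higher in PP2A-KO, with an LFC of 1.45 (SE 0.07, 95% interval 1.28 to 1.62, adjusted p = 1.93e-05 from edgeR), and the log2 ratios within replicate numbers were 1.38, 1.48 and 1.48.

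The genes of the T cell receptor complex and of CD8 were nearly absent from the same libraries. *Cd3e* had 5, 1 and 2 counts in PP2A-KO and 0, 3 and 0 in WT, *Cd3d* and *Cd3g* had at most 2 counts in any library, and *Cd8a* and *Trbc1* had 0 counts in all 6. Of 16 T cell markers, 7 passed the filter on low counts, of which 2 were higher and 1 was lower (2 and 2 with replicate number as a block). Over all genes tested, 37.1% were called, and 50.9% with the block. The median LFC of the 7 was -0.30. *Lck*, a kinase of T cell receptor signaling, was higher like *Cd4*, at 1.42 ± 0.153 CPM in PP2A-KO and 0.753 ± 0.185 CPM in WT (SD, n = 3, LFC 0.90, adjusted p = 0.0112 from edgeR). *Zbtb7b* was also higher (LFC 0.29), and *Cd28* was lower (LFC -0.30, adjusted p = 0.0105 from edgeR). *Cd2* (LFC -0.58) and *Thy1* (-1.42) did not pass, though *Thy1* was lower with the block (adjusted p = 0.0369 from edgeR). *Cd5* and *Lat* had 47 to 105 counts and did not pass. The summed level of the list was 164.9 to 168.8 CPM in PP2A-KO and 155.0 to 162.0 CPM in WT, most of it from *Zbtb7b*, at 114 ± 4.05 and 93.1 ± 3.81 CPM, and *Cd28*, at 47.3 ± 4.33 and 58.3 ± 1.59 CPM (SD, n = 3). The part of the measurable T cell genes in the *Cd4* result was not tested.

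*Cd4* lies in a gene-dense region, and the 14 other genes whose start lies within 100 kb of its own were set beside it, a window chosen after values were seen. Of the 11 that could be tested, 4 were higher in PP2A-KO and 1 was lower, where 37.1% of all genes tested were called in either direction, and their median LFC was 0.11. *Lag3*, a CD4-related receptor gene 23.5 kb upstream on the same strand, had 0.893 ± 0.208 CPM in PP2A-KO and 0.371 ± 0.0543 CPM in WT (SD, n = 3), an LFC of 1.27 (adjusted p = 0.00507 from edgeR). *Gpr162*, 24.2 kb downstream, had an LFC of 0.74 (adjusted p = 9.74e-05 from edgeR), followed by *Ptms* at 0.52 and *P3h3* at 0.43. *Cdca3*, a cell division gene on the other strand, was lower (LFC -1.17, adjusted p = 3.91e-04 from edgeR), and the remaining 6 tested neighbours did not pass the test.

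**Figure D2:**
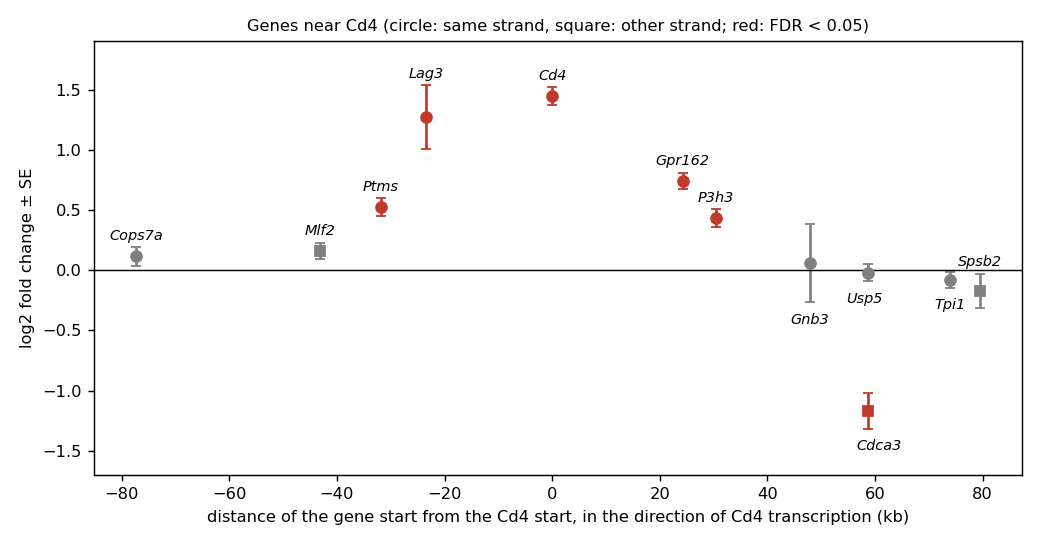
Log2 fold change, PP2A-KO over WT, of *Cd4* and the tested genes around it against distance from the *Cd4* start in kb, with bars for the SE. *Cd4* at 1.45 and *Lag3* at 1.27 are the highest points, while *Cdca3* at -1.17 is the lowest.

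*Lyz1*, the lysozyme gene known from Paneth cells, was lower in PP2A-KO. Its counts were 2144, 1541 and 1747 in PP2A-KO and 5256, 4311 and 3410 in WT, or 50.5, 46.7 and 41.9 CPM against 105.8, 99.1 and 81.3 CPM. The groups did not overlap. The means of 46.4 ± 4.35 and 95.4 ± 12.6 CPM (SD, n = 3) differed 2.06-fold, an LFC of -1.04 (SE 0.11, 95% interval -1.28 to -0.80, adjusted p = 1.55e-04 from edgeR).

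*Lyz2*, the lysozyme gene of myeloid cells whose promoter drives cre, was low in both groups. It had 8.60, 7.88 and 10.1 CPM in PP2A-KO and 6.58, 6.99 and 8.33 CPM in WT, from 260 to 421 counts per library. The groups overlapped, and replicate 3 was the highest in both. The means of 8.86 ± 1.13 and 7.30 ± 0.912 CPM (SD, n = 3) gave an LFC of 0.28 (SE 0.12, adjusted p = 0.104 from edgeR). With replicate number as a block, the change of 0.28 passed the test (adjusted p = 0.0118 from edgeR), and without WT replicate 3 it was 0.39 (adjusted p = 0.0390 from edgeR). *Lyz2* is known as one of the most abundant transcripts of macrophages, so a level under that of *Lyz1* in both groups is unusual for cells of this label. *Csf1r* and *Adgre1* were high in the same libraries. The roles of the counting tools and the annotation release are not given, and the cause of the low *Lyz2* level was not tested.

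The 2 lysozyme genes were also read as a pair. Per count of *Lyz2* there were 5.87, 5.93 and 4.15 counts of *Lyz1* in the PP2A-KO libraries and 16.1, 14.2 and 9.77 in the WT libraries, and the groups did not overlap (p = 0.1 by a two-sided exact permutation test, the smallest possible). Their summed counts, an alternative chosen after seeing the data, came to 55.2 ± 3.64 CPM in PP2A-KO and 102.7 ± 11.7 CPM in WT (SD, n = 3), an LFC of -0.90 (SE 0.09, adjusted p = 1.57e-04 from edgeR). Of 8 further genes of the family, *Lyzl4* could be tested, at 1.16 ± 0.152 CPM in PP2A-KO and 1.32 ± 0.152 CPM in WT (SD, n = 3) with an LFC of -0.21 (adjusted p = 0.422 from edgeR), and the other 7 had 0 counts in every library.

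**Figure D3:**
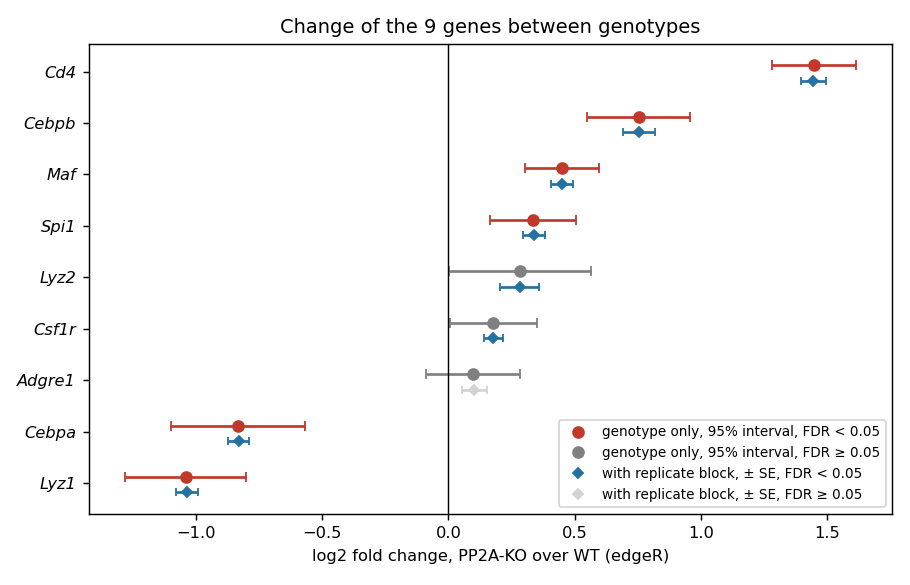
Log2 fold change of each member, PP2A-KO over WT, from edgeR, where circles have bars for 95% intervals of the fit without the block, and diamonds have bars for the SE of the fit with replicate number as a block. *Cd4* (1.45) and *Lyz1* (-1.04) lie beyond 1 in size, and the 95% interval of *Adgre1* spans 0.

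The order of levels between genes was read per length, as CPM divided by the kilobases of exon in GENCODE M21. In WT the order was *Csf1r* (521 ± 31.0), *Adgre1* (386 ± 37.1), *Cebpb* (159 ± 14.5), *Spi1* (116 ± 8.77), *Cebpa* (103 ± 13.99), *Lyz1* (75.6 ± 10.01), *Maf* (21.8 ± 1.11), *Lyz2* (5.55 ± 0.693) and *Cd4* (3.89 ± 0.208), in CPM per kb (SD, n = 3). The ranges of *Spi1* and *Cebpa* overlapped in WT, so their order was not resolved, whereas the other neighbours were apart on this length. *Csf1r* ranked 57 and *Adgre1* 76 among 13615 genes in WT, and 62 and 90 in PP2A-KO. In PP2A-KO, *Cebpa* fell to 57.6 ± 7.20 and *Lyz1* to 36.7 ± 3.44 CPM per kb, and *Cd4*, at 10.6 ± 0.719, stood above *Lyz2*, at 6.73 ± 0.857. With the longest transcript as the length, the PP2A-KO mean of *Maf* (38.7) was above that of *Lyz1* (36.7). Their ranges (37.6 to 39.6 and 33.1 to 40.0) overlapped, so that order was not resolved. On that length the WT ranges of *Cebpb* (143.9 to 172.6) and *Spi1* (140.0 to 161.9) overlapped, as did those of *Lyz2* and *Cd4*, while *Spi1* and *Cebpa* were apart. Whether the order of these pairs is resolved thus depends on the length used.

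**Figure D4:**
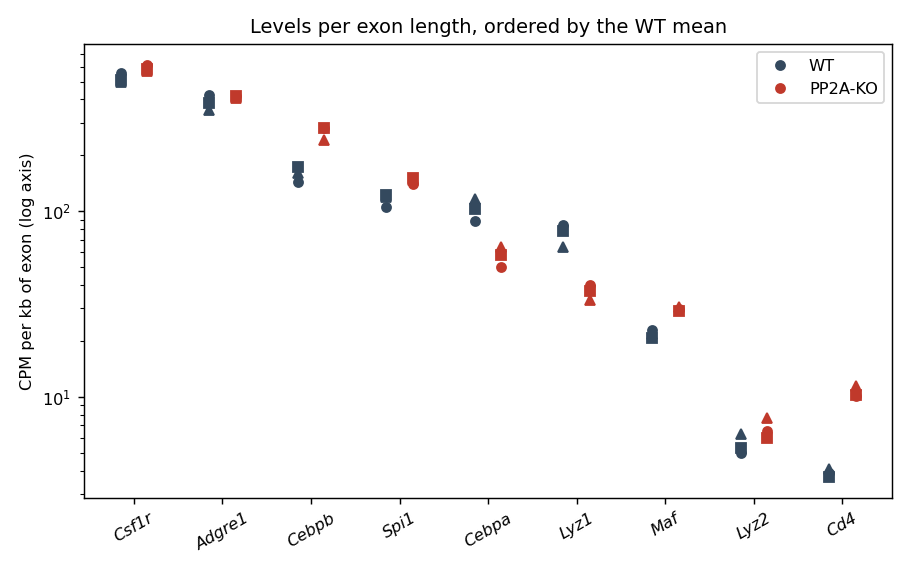
CPM per kb of exon of the 9 members on a log axis, with a point per library and groups side by side. *Csf1r* and *Adgre1* are at the top in both groups, and *Cd4* and *Lyz2* exchange places at the bottom.

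Lists of related genes were read beside the members. The lists were chosen with earlier results of these data known, so their counts against the share over all genes are a description only. Of 32 other transcription factors of the macrophage lineage, 28 were tested, of which 14 were higher in PP2A-KO and 5 were lower, and the median LFC was 0.25. Over all genes tested, 18.1% were higher and 19.0% lower, so the count of lower genes was near that share and the count of higher genes was above it. With replicate number as a block, 18 were higher and 7 were lower, where 50.9% of all genes were called. The most raised were *Id3*, an inhibitor of helix-loop-helix factors (232 ± 19.2 against 127 ± 6.28 CPM, LFC 0.87), *Maff*, a small Maf factor (0.85), and *Klf4*, a factor of monocyte differentiation (0.81). The most lowered were *Tfeb*, a regulator of lysosome genes (-0.65), *Bhlhe40* (-0.62) and *Bhlhe41* (-0.37), which are paralogous repressors.

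Of 25 other surface markers, all of them tested, 7 were higher, 2 were lower and 16 did not pass, and the median LFC was 0.11. The 36% called was near the 37.1% of all genes tested. More of the markers called were higher than lower, where all genes split into 18.1% higher and 19.0% lower. With replicate number as a block, 11 were higher and 4 were lower, where 50.9% of all genes were called. *Axl*, a receptor for apoptotic cells, rose from 238 ± 40.7 CPM in WT to 745 ± 80.8 CPM in PP2A-KO (SD, n = 3, LFC 1.65, adjusted p = 6.16e-05 from edgeR). *Siglec1*, the sialic acid receptor CD169, had an LFC of 0.89, and *Fcgr1*, the high-affinity Fc receptor CD64, one of 0.70. *Itgax*, the CD11c integrin, was lower (-0.69), as was the tetraspanin *Cd9* (-0.26). The common markers *Itgam* (CD11b, LFC -0.09, adjusted p = 0.516 from edgeR) and *Cd68* (0.08, adjusted p = 0.412 from edgeR) did not pass, as *Adgre1* did not.

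Around the M-CSF receptor, 17 of 18 genes of ligands, related receptors and signaling proteins were tested, of which 6 were higher and 1 was lower (8 and 2 with the block), and the median LFC was 0.17. The 41.2% called without the block was again near the share over all genes (37.1%), of which 50.9% were called with the block. More of the called genes of this list were higher than lower, where all genes split into 18.1% higher and 19.0% lower. The gene of the ligand, *Csf1*, had 140 ± 14.7 CPM in PP2A-KO and 69.6 ± 17.99 CPM in WT (SD, n = 3), an LFC of 1.01 (adjusted p = 0.00127 from edgeR). The Src family kinase *Lyn* (1.07) was higher, and the adaptor *Dok2* was lower (-0.44). Most of the 15 genes of tissue-resident macrophages were too low to test. Of the 6 that were tested, *P2ry12*, a purine receptor of microglia, was higher (1.29) and *Fabp4*, a fatty acid binding protein of alveolar macrophages, was lower (-1.19), and with the block 2 were higher and 3 were lower.

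**Figure D5:**
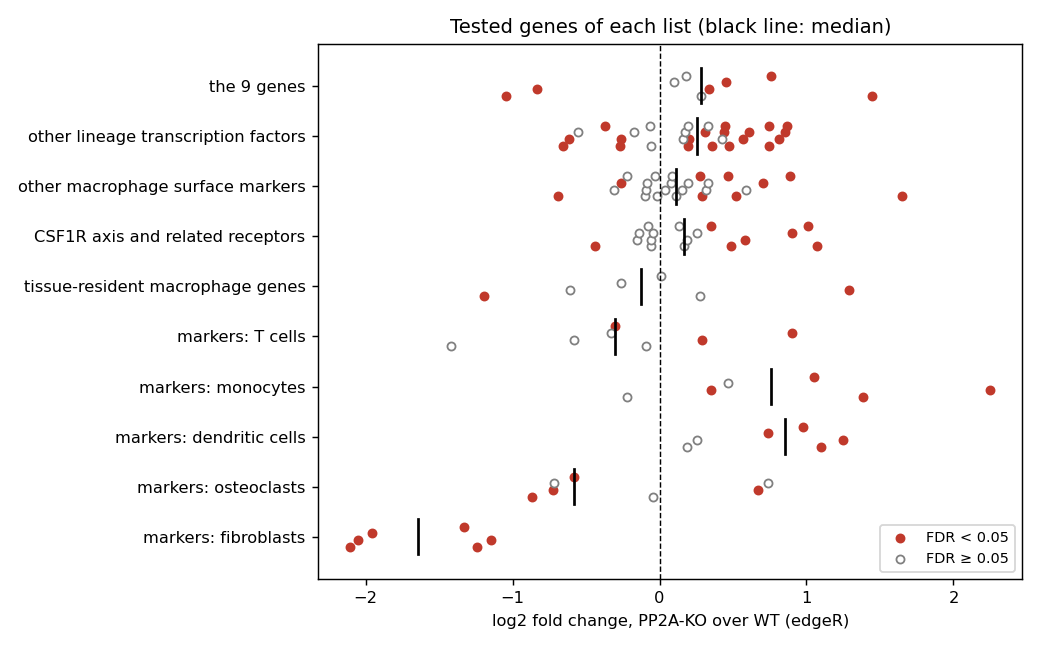
Log2 fold change, PP2A-KO over WT, of the tested genes of each list, with a point per gene (filled where it passed the test) and a bar for the list's median. Genes of the 9 members and of the lists lie on both sides of 0, and the 6 fibroblast markers all lie below it.

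Marker lists of other cells were read in the same way, beside the 18.1% of all genes tested that were higher and the 19.0% that were lower. All 6 fibroblast markers were lower in PP2A-KO, the median LFC being -1.64, and their summed level was 37.4, 30.3 and 24.9 CPM in PP2A-KO against 115.5, 124.8 and 80.7 CPM in WT. *Col1a1*, a defining marker, had 7.44 ± 0.976 and 32.0 ± 4.604 CPM (SD, n = 3). The fibroblast genes moved in the same direction as *Cebpa* and *Lyz1*, and their part in those results was not tested. Of 7 monocyte markers, 6 were tested and 4 were higher, with *Ly6c2* at 0.741 ± 0.174 and 0.280 ± 0.0633 CPM (SD, n = 3). Their summed level was 27.3 to 28.1 CPM in PP2A-KO and 22.8 to 25.6 CPM in WT. Of 9 dendritic cell markers, 6 were tested and 4 were higher, and the summed level of 795.3 to 899.5 CPM in PP2A-KO against 394.7 to 546.2 CPM in WT came mostly from *Bst2* and *Tcf4*. Of the defining genes, *Zbtb46* and *Xcr1* had at most 21 and 3 counts in any library, while *Clec9a*, at 8 to 54 counts, was higher in PP2A-KO (LFC 1.25, adjusted p = 0.0284 from edgeR), as was *Siglech* (LFC 0.97, adjusted p = 0.0194 from edgeR). The summed levels of both lists were higher in PP2A-KO, like *Spi1*, *Cebpb*, *Maf* and *Cd4*. Each sum rests on few genes and does not measure a number of cells, and the part of these lists in those results was not tested. The study reported raised type I interferon signatures in PP2A-KO BMDM after cGAMP. The part of that response in the levels of these lists, and in *Axl*, *Siglec1* and *Fcgr1*, was not tested. Of 8 osteoclast markers, 7 were tested, 1 was higher and 3 were lower. Their summed level was 237.7 to 274.4 CPM in PP2A-KO and 374.6 to 390.9 CPM in WT. Most of it came from *Atp6v0d2*, at 169 ± 21.0 and 280 ± 16.6 CPM (SD, n = 3). The defining genes disagreed: *Ctsk* was lower (LFC -0.87), *Acp5* was higher (0.67, adjusted p = 0.00399 from edgeR) and *Ocstamp* (0.74) did not pass. None of the 3 tested markers of NK and B cells, of 9 listed, or the 2 tested of granulocytes, of 13 listed, passed the test, and these lists summed to at most 3.15 CPM. With replicate number as a block, *Mmp8* of the granulocyte list was lower (adjusted p = 0.0262 from edgeR). In that fit, 5 monocyte markers were higher and 1, *Spn*, was lower (adjusted p = 0.0148 from edgeR). Of the osteoclast markers, 2 were higher and 4 were lower. Over all genes tested, 50.9% were called with the block. None of the 9 erythroid and mast cell markers had enough counts to be tested.

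The genes whose levels followed those of a member most closely were found by Pearson correlation of log2 CPM over the 6 libraries, which includes the difference between genotypes and is given as a description. *Cd4* was most like *Myo7a* (r = 0.999) and *Vamp8* (0.998). *Lyz1* was most like *Dennd4a* and *Cald1*, and *Cebpa* like *Fam120b*, *Fblim1* and *Slc26a11*. *Cebpb* was most like *Nipal1*, *Lrp10* and *Arf6*, *Maf* like *Pdgfc*, *Perm1* and *Ywhae*, and *Spi1* like *Eef1a1*, *Fau* and *Trir*. *Csf1r* was most like *Cep170*, *Stard8* and *Kpna4*, and *Adgre1* like *Sar1a*, *Slfn5os* and *Galnt1*. For *Lyz2* the highest correlations were lower, from 0.976 to 0.980, with *Rpl32l*, *Ciz1* and *6820431F20Rik*. No member was among the 3 genes most like another member.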

How the data were processed

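Poly(A) RNA of 6 BMDM libraries was sequenced as paired 150-base reads after library preparation with a strand-marking kit. The authors deposited whole-number counts of reads per gene of mm10, without normalization. The submitters' processing notes name fastp 0.20.0, kallisto 0.46.1, STAR 2.7.1a, HTSeq 0.11.2, edgeR 3.34.0 and limma 3.48.3 without roles. The annotation release and strand setting are not given in the sources used here, so reads of a gene and of its antisense partner may not have been told apart.

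Groups came from the labels. The tests used edgeR 4.0.16 under R 4.3.3 (filterByExpr with a minimum count of 10 and total of 15, TMM scaling, quasi-likelihood test for genotype), with Benjamini-Hochberg adjustment over 13680 genes. CPM use the TMM factors. Library totals were 35257156 to 46647682 counts in PP2A-KO and 38235133 to 47390899 in WT. Both groups carry replicate numbers 1, 2 and 3 in the labels. Deviations from the group means correlated at 0.289, 0.148 and 0.337 between libraries of the same number, so the numbers were taken to pair the samples, and a fit with the number as a block was made. Libraries of different numbers were not correlated in this way, so it was not shown that this pairing is better than another. Nothing states what the numbers share.

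Alternatives were RLE and upper-quartile scaling, other filters, the block, DESeq2 1.42.0, limma-voom 3.58.1 and leaving out each library. The test was tried on simulated counts. GENCODE M21 matched 98.4% of symbols and 99.5% of the genes tested. The members and lists were chosen with earlier results of these data known. Genes named beside the members were up to 3 called higher and 3 called lower in each list with the largest change at 1 CPM or more, fixed family members, defining cell type markers, overlapping genes and the 3 most correlated genes. *Zbtb7b*, *Cd28*, *Lck*, *Cd2*, *Thy1*, *Cd5*, *Lat*, *Spn*, *Bst2*, *Tcf4*, *Siglech*, *Atp6v0d2*, *Mmp8* and the genes around *Cd4* were named after their values were seen. Some genes under this rule are not reported here.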

Additional observations from a re-analysis of the deposited data

How the results depend on the processing

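In 13 alternatives (2 further scalings, 2 further filters, the replicate block, DESeq2, limma-voom and 6 fits that left out 1 library), no member changed direction and none of the 6 calls was lost. *Csf1r* (0.18 on the log2 scale) passed the test with the replicate block (0.18) and in DESeq2 (0.20), and ran from 0.14 to 0.23 without 1 library. *Lyz2* (0.28) passed with the replicate block (0.28) and ran from 0.18 to 0.39. The replicate block changed no other member's call. The count of members past the study's thresholds ran from 1 to 2 when 1 library was left out, and was 1 without PP2A-KO replicate 3 and without WT replicate 1. Genes called numbered 5074, and 6958 with the block. *Lyz2* had the fewest counts of the members (260 in PP2A-KO replicate 2), so its values carry the most counting error.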
